A study of Mus musculus with 10 samples.

Results

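The 9 genes described here encode intermediate filament proteins of the nervous system, chosen by name from the 46517 genes of the count tables: nestin (Nes), vimentin (Vim), glial fibrillary acidic protein (Gfap), the light, medium and heavy neurofilament subunits (Nefl, Nefm and Nefh), alpha-internexin (Ina), peripherin (Prph) and synemin (Synm). They were followed in 10 RNA-seq libraries from 5 mouse models, A to E, of malignant peripheral nerve sheath tumour (MPNST), a cancer that arises in the Schwann cell lineage of nerves. Each model was grown as an allograft and gave 1 library of GFP+ tumour cells, which expressed a transgene named CGD, and 1 library of GFP- tumour cells, which did not. In all 10 samples the fresh tumours had been dissociated with collagenase, and wild-type and dead cells had been gated out by flow cytometry. The tumour genotype, the host strain, age and sex, and any treatment go unstated in the sources used here, as does the number of animals behind a library, so each model is 1 pair of libraries. A published CGD transgene is driven by nestin regulatory sequence. The labels do not say whether the same driver was used here, and if it was, the sort and the Nes level share regulatory sequence.

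Intermediate filament proteins have a central coiled-coil rod, pair through it and assemble into flexible cables that give a cell its mechanical strength. Vimentin polymerises alone in mesenchymal cells and in Schwann cell precursors, and nestin, a marker of neural progenitors, needs a partner such as vimentin to form filaments. Neurofilaments fill the axons of neurons, GFAP marks astrocytes and non-myelinating Schwann cells, peripherin belongs to peripheral neurons, and synemin ties filaments to the dystrophin complex in muscle.

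The end of the rod is the most conserved stretch of the family and shows how closely these genes are related, which bears on whether reads can be told apart between them. For 8 of the 9 genes the 30 coding bases around it are printed from the GENCODE vM21 transcripts, 5′ to 3′ on the coding strand, and the 18 bases in capitals are the 6 codons of the helix termination motif.
Nes: gctacaTACAGGACTCTGCTGGAGgctgag
Gfap: gccaccTACAGGAAATTGCTGGAGggcgaa
Nefl: gcagctTACAGAAAACTCTTGGAAggcgaa
Nefm: gccgcgTACAGGAAACTCCTAGAGggggaa
Nefh: gccgctTACAGAAAGCTCCTGGAAggcgaa
Ina: gcagctTACAGGAAGCTCCTGGAAggtgaa
Prph: gccaccTACAGGAAGCTACTGGAAggggag
Synm: gccaccTACAGGGCCTTGTTGGAAggagaa
In build mm10 these bases lie at chr11:102893043-102893072 on the minus strand for Gfap and chr15:99057441-99057470 on the plus strand for Prph, in 1 exon each. They are joined across an intron within chr3:87973106-87974820 for Nes, chr14:68086088-68086505 for Nefl and chr19:47021947-47023353 for Ina, all on the plus strand. The same holds on the minus strand within chr14:68121366-68122831 for Nefm, chr11:4941397-4943861 for Nefh and chr7:67739157-67751814 for Synm. The longest run of identical bases between the transcripts of any 2 of the 9 genes was 35 bases, between Nefm and Prph, and the next longest was 23. What follows the motif sets the family apart: 61 residues in vimentin and 62 in GFAP, against 444 in the medium and 685 in the heavy neurofilament subunit, 1245 in synemin and 1556 in nestin.

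The promoters of Nes and Vim are shown because nestin and vimentin form filaments together and the pair differences of both transcripts are compared with each other. Each line gives the 250 bases before the RefSeq start of the gene in GRCm38.p6, on the plus strand, at chr3:87970843-87971092 for Nes and chr2:13574061-13574310 for Vim. The GENCODE vM21 gene spans start earlier, at 87971078 for Nes and 13573927 for Vim. By that annotation the Nes window runs past the gene start, and the Vim window lies wholly within the gene. Capitals mark 3 promoter motifs, searched on both strands: the GC box (GGGCGG), the CAAT box (CCAAT) and the TATA box (TATAAA). A GC box on the other strand reads CCGCCC here, and a CAAT box there reads ATTGG.
Nes promoter: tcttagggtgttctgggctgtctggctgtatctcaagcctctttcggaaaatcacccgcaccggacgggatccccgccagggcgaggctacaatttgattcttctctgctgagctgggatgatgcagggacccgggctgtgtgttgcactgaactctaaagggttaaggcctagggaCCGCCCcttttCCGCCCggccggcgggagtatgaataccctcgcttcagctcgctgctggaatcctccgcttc
Vim promoter: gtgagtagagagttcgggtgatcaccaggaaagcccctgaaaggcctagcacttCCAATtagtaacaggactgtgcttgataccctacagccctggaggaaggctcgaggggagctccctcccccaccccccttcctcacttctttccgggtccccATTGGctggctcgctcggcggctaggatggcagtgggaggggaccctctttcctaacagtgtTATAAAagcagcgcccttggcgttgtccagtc
The Nes window held the GC box at 2 places and neither of the other motifs, and the Vim window held the CAAT box at 2 places, the TATA box at 1 and no GC box. Of the 32851 RefSeq promoters cut to the same length, 32.7% held the GC box, 33.8% the CAAT box and 12.4% the TATA box. The GC content was 58.8% in the Nes window and 58.4% in the Vim window. A match is a description of the letters and not a bound site. Of the 9 genes, 6 were found in the promoter table.

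Libraries held 15978673 to 22082207 reads in genes, and levels are given as CPM, the reads of a gene scaled to the library total. Sex-linked transcripts were read as a check of the pairs. Models B, C and E had 523 to 1049 CPM of Xist in both populations and at most 1.35 CPM of the Y-linked Ddx3y, and model A the reverse, with 41.7 CPM of Ddx3y in GFP+ and 60.7 CPM in GFP- cells. In model D, GFP+ cells had 103 CPM of Xist beside 42.2 CPM of Ddx3y, and GFP- cells had 2.82 CPM of Xist beside 64.1 CPM of Ddx3y. The GFP+ library of model D thus carried transcripts of both kinds, and results are also given without pair D. Whether it held cells of more than 1 animal was not tested. The labelled identity was read from a Schwann lineage list of 13 genes, including Sox10 and Erbb3, which summed to 16.1 to 420 CPM in GFP+ and 11.8 to 89.3 CPM in GFP- libraries. Sox10, the transcription factor that defines the lineage, was near 0 in models A and E, with 0.111 and 0.434 CPM in their GFP+ libraries and 0.0514 and 0 CPM in their GFP- libraries.

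Nestin transcripts were more abundant in GFP+ cells in 4 of the 5 models. Nes (ENSMUSG00000004891, chromosome 3, 87971078 to 87980451, plus strand) stood at 88.4, 67.7, 40.5, 231 and 51.5 CPM in GFP+ cells of models A to E, against 97.2, 16.1, 19.8, 66.8 and 19.8 CPM in GFP- cells. Model A was the exception, slightly lower in GFP+ cells, and the populations overlapped, since GFP- cells of models A and D had more Nes than GFP+ cells of models C and E. Nes averaged 95.8 ± 77.8 CPM over the GFP+ libraries and 43.9 ± 36.4 CPM over the GFP- libraries (SD, n = 5 each). Because these are bulk samples, fewer Nes-expressing cells and less Nes RNA per cell cannot be told apart.

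The GFP+ to GFP- ratio of Nes within a model was 4.02 in B, 3.34 in D, 2.63 in E and 2.01 in C. In model A it was 0.89, with a 95% exact interval of 0.83 to 0.95. These intervals cover counting error only, and the interval for B, 3.57 to 4.53, met that for D, 3.12 to 3.57, at its edge. In edgeR's quasi-likelihood test with the model as a block the log2 difference was 1.20 (SE 0.29), with an adjusted p of 0.363 over the 13986 genes tested. Flipping the signs of the 5 pair differences (exact two-sided test) gave p = 0.125, and the smallest p that 5 pairs allow is 0.063. Without pair D the log2 difference was 1.06 and without pair A it was 1.53.

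Read over all 6 members that passed the filter on low counts, edgeR's quasi-likelihood test called 0 at an adjusted p under 0.05, as it called 0.0% of all genes tested. At an unadjusted p under 0.05 it gave 3 of the 6, Nes, Nefl and Nefm, all higher in GFP+ cells, beside 8.99% of all genes (5.5% higher and 3.49% lower). DESeq2 with the same block called the same 3 genes higher, with adjusted p of 0.00185 for Nes, 0.0109 for Nefl and 0.0301 for Nefm, and called 1.36% of all genes tested (0.994% higher and 0.365% lower). edgeR's likelihood-ratio test called Nes (adjusted p = 0.00912) and Nefl (0.0186) but not Nefm (0.0606), so the call for these genes rests on the test used. By p-value, Nes ranked 155, Nefl 190 and Nefm 371 among the 13986 genes.

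**Figure D1:**
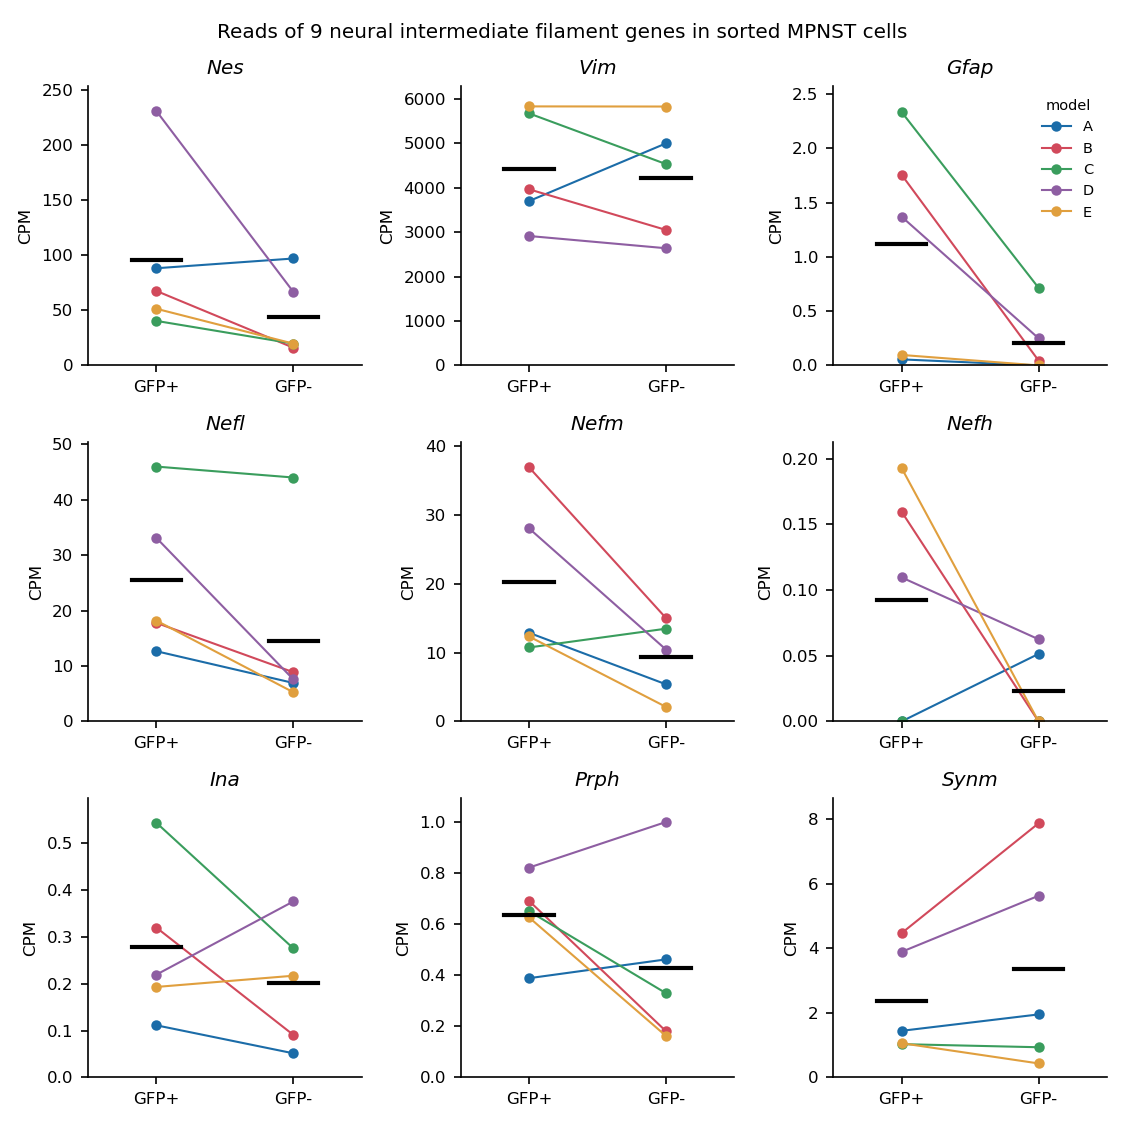
CPM of each of the 9 genes (linear axes from 0) in the GFP+ and GFP- libraries, with a line joining the 2 libraries of each model A to E and a black bar at the mean. Nes reached 231 CPM in GFP+ cells of model D, and the 2 populations overlapped in all 9 genes.

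Vimentin was the most abundant filament transcript, and its difference between the populations was smaller than the spread between models. Vim (ENSMUSG00000026728, chromosome 2, 13573927 to 13582826, plus strand) had 3699, 3964, 5672, 2913 and 5829 CPM in GFP+ cells of models A to E, against 4997, 3049, 4532, 2637 and 5826 CPM in GFP- cells. GFP+ cells were lower in model A, higher in B, C and D, and level with GFP- cells in E. Vim averaged 4415 ± 1280 CPM over the GFP+ libraries and 4208 ± 1338 CPM over the GFP- libraries (SD, n = 5 each). The log2 difference was 0.05 (SE 0.16), with an edgeR quasi-likelihood adjusted p of 0.958, and its sign turned to -0.01 without pair B or without pair C. Without pair D it was 0.04.

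The same comparison can be made within a pair, which asks whether the signed GFP+ minus GFP- difference of Nes was above that of its filament partner. The log2 difference of Nes minus that of Vim was 0.30, 1.69, 0.70, 1.65 and 1.37 in models A to E. It was above 0 in all 5, with a mean of 1.14 ± 0.62 (SD, n = 5). In model A both genes were lower in GFP+ cells, Nes by -0.17 and Vim by -0.46, so Vim differed more there. The exact two-sided sign-flip p was 0.063, the smallest 5 pairs allow, or 0.0938 after Benjamini-Hochberg adjustment over the 3 such comparisons made. Without pair D the mean was 1.02. Per length, Nes was 1.77%, 1.26%, 0.527%, 5.87% and 0.653% of Vim in GFP+ cells of models A to E, against 1.44%, 0.390%, 0.323%, 1.87% and 0.251% in GFP- cells. These shares use the union of exons as the length, and with the longest transcript each is 1.55 times lower.

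The light and medium neurofilament subunits, which neurons build into axonal filaments, were both present. Nefl (ENSMUSG00000022055, chromosome 14, 68083863 to 68089095, plus strand) had 12.7, 17.8, 46.0, 33.1 and 18.2 CPM in GFP+ cells of models A to E, against 6.94, 8.88, 44.0, 7.57 and 5.26 CPM in GFP- cells. GFP+ cells were higher in all 5 models, by 1.03-fold in C to 4.22-fold in D, but the populations overlapped through the GFP- library of model C. In that model the 95% exact interval of the ratio was 0.93 to 1.13. The log2 difference was 1.12 (SE 0.29), with an edgeR quasi-likelihood adjusted p of 0.379. The exact sign-flip p was 0.063, and without pair D the difference was 0.88.

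Nefm (ENSMUSG00000022054, chromosome 14, 68082590 to 68124846, minus strand) had 12.9, 37.0, 10.8, 28.1 and 12.4 CPM in GFP+ cells of models A to E, against 5.40, 15.0, 13.5, 10.5 and 2.12 CPM in GFP- cells. Model C was the exception, with GFP+ cells lower by a ratio of 0.78 (95% exact interval 0.65 to 0.95), while model E had the widest gap at 5.89 (4.20 to 8.48). The log2 difference was 1.18 (SE 0.35), with an edgeR quasi-likelihood adjusted p of 0.421, and an exact sign-flip p of 0.125. It was 1.13 without pair D, 0.87 without pair E and 1.55 without pair C.

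Subtracting the Nefl difference from the Nefm difference gave a mean of 0.06 ± 0.58 on the log2 scale (SD, n = 5; exact sign-flip p = 0.875). Its sign turned to -0.02 without pair A and to -0.10 without pair E. In GFP+ cells 5.12% of the tested genes exceeded GFP- cells in all 5 pairs, 4.68% were below them in all 5 and 9.8% did one or the other, and Nefl was 1 of the 6 tested members among the higher ones. Populations that did not overlap were found in 0.179% of tested genes and in 0 of the 9 members.

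The balance of both subunits differed widely between models. Per length, the ratio of Nefl to Nefm was highest in model C, at 7.32 in GFP+ and 5.59 in GFP- cells. It was lowest in model B, at 0.823 in GFP+ and 1.01 in GFP- cells. The other models lay between, at 1.68 in GFP+ and 2.20 in GFP- cells of model A, 2.02 in GFP+ and 1.24 in GFP- cells of model D, and 2.52 in GFP+ and 4.25 in GFP- cells of model E. These ratios use the union of all exons as the length of a gene. With the longest transcript, an alternative added after the data were seen, every ratio is 1.57 times lower, at 4.66 in GFP+ and 3.56 in GFP- cells of model C, 0.524 in GFP+ and 0.643 in GFP- cells of model B, and 1.28 in GFP+ and 0.789 in GFP- cells of model D. The order of the libraries is the same, but whether Nefl or Nefm is the higher in GFP- cells of models B and D depends on that choice.

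**Figure D2:**
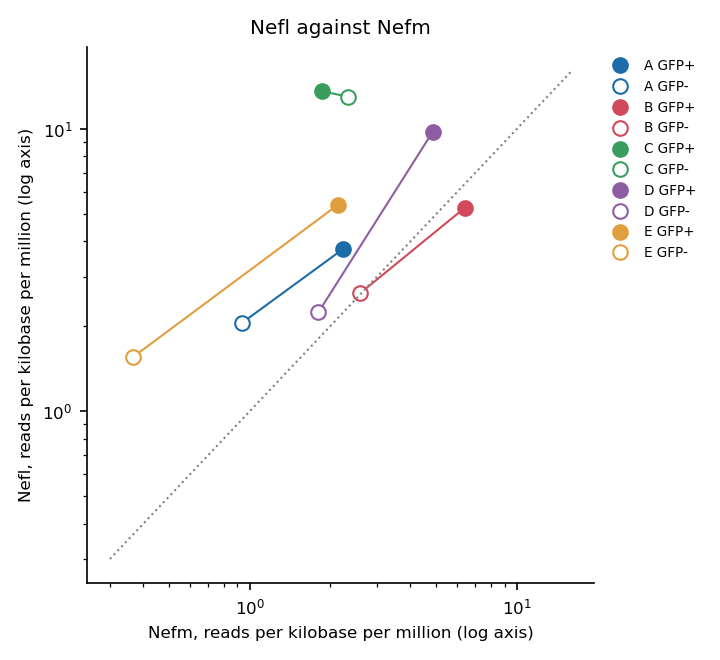
Nefl against Nefm in RPKM (both axes log), with filled points for GFP+ and open points for GFP- libraries, a line joining the pair of each model and a dotted line where both are equal. Both libraries of model C lie far above the dotted line, at ratios of 7.32 in GFP+ and 5.59 in GFP- cells, and those of model B lie on or near it with exon-union lengths, against 0.524 in GFP+ and 0.643 in GFP- cells with the longest transcript.

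The 2 neurofilament genes are neighbours on chromosome 14, and the annotated span of Nefm covers all 5233 bases of Nefl on the other strand. Counting with the strand therefore matters. Over the 10 libraries Nefl had 3739 reads in the strand-aware column used here and 2276 in the column without strand, 60.9% as many, while Nefm had 2780 and 2852. With the column without strand the log2 difference was 1.08 for Nefl and 1.19 for Nefm. Synm also gained, with 798 reads against 549, and 249 reads lay on its opposite strand, whereas Nes had 12 such reads beside 12927 and Vim 272 beside 815795.

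The heavy subunit Nefh, which spaces mature axonal filaments, was at or near 0. Nefh (ENSMUSG00000020396, chromosome 11, 4938754 to 4948064, minus strand) had 0, 3, 0, 2 and 4 reads in GFP+ cells of models A to E, against 1, 0, 0, 1 and 0 reads in GFP- cells. On the opposite strand of Nefh 30 reads were counted over all libraries, beside 11 on its own. Alpha-internexin, which joins the neurofilament subunits in the central nervous system, was little higher. Ina (ENSMUSG00000034336, chromosome 19, 47014698 to 47025327, plus strand) had 2, 6, 10, 4 and 4 reads in GFP+ cells, against 1, 2, 5, 6 and 4 reads in GFP- cells. Neither passed the filter on low counts, and the counts of both populations overlapped, so no difference was detectable at this depth.

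Gfap, the filament gene of astrocytes and non-myelinating Schwann cells, was above 2 reads in GFP+ cells of 3 models. Gfap (ENSMUSG00000020932, chromosome 11, 102887336 to 102900912, minus strand) had 1, 33, 43, 25 and 2 reads in GFP+ cells of models A to E, against 0, 1, 13, 4 and 0 reads in GFP- cells. That is 0.056, 1.76, 2.34, 1.37 and 0.097 CPM in GFP+ cells, against 0, 0.045, 0.715, 0.250 and 0 CPM in GFP- cells. Every GFP+ library was above its own partner, but the populations overlapped, because GFP- cells of models C and D exceeded GFP+ cells of models A and E.

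The Gfap ratio was 3.21 in model C (95% exact interval 1.69 to 6.51) and 5.28 in model D (1.82 to 20.9). In model B it was 37.0 with an interval of 6.20 to 1506, since the GFP- library had 1 read. The mean of the 5 pair differences of log2 CPM was 1.73 ± 1.16 (SD, n = 5), with an exact sign-flip p of 0.063, and 1.67 without pair D. With a prior count of 0.5 in place of 2 the mean was 2.47. The differences of 0.60 in model A and 0.95 in model E rest on 1 and 2 reads against 0. Gfap did not pass the filter on low counts. Fitted without the filter, its log2 difference was 2.65 (SE 0.56), with an edgeR quasi-likelihood adjusted p of 0.0881.

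Sox10, chosen here after its values were seen, was also highest in GFP+ cells of models B, C and D. It stood at 0.111, 17.1, 52.6, 112 and 0.434 CPM in GFP+ cells of models A to E, against 0.0514, 1.63, 7.65, 3.69 and 0 CPM in GFP- cells. Of 7 astrocyte markers 5 were tested, 3 with a positive and 2 with a negative difference (median log2 difference 0.01), and 0 had an unadjusted p under 0.05. The smallest p was that of Aldh1l1, with a log2 difference of 1.04 (SE 0.51) and at most 6.17 CPM. The list summed to 420 to 978 CPM in GFP+ and 535 to 1008 CPM in GFP- libraries. Most of that was Gja1, a gap junction gene that many cell types express, at up to 971 CPM, while Slc1a3 reached 39.1 CPM, Aldoc 20.5 CPM, Slc1a2 10.3 CPM and the water channel gene Aqp4 0.167 CPM. S100b stands in both the astrocyte and the Schwann lineage list.

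Peripherin and synemin, filament genes of peripheral neurons and of muscle, were low. Prph (ENSMUSG00000023484, chromosome 15, 99055174 to 99058978, plus strand) had 7, 13, 12, 15 and 13 reads in GFP+ cells of models A to E, against 9, 4, 6, 16 and 3 reads in GFP- cells. Models A and D went the other way from B, C and E, and the populations overlapped. The log2 difference was 0.69 (SE 0.43), with an edgeR quasi-likelihood adjusted p of 0.682.

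Synm (ENSMUSG00000030554, chromosome 7, 67730160 to 67759742, minus strand) had 1.44, 4.47, 1.03, 3.89 and 1.06 CPM in GFP+ cells of models A to E, against 1.95, 7.88, 0.936, 5.63 and 0.434 CPM in GFP- cells. It was the only tested member with a negative difference, and the pairs split, with GFP+ cells lower in A, B and D and higher in C and E. In model B the ratio was 0.54 (95% exact interval 0.41 to 0.71), and in model E it was 2.47 (1.06 to 6.42). The log2 difference was -0.24 (SE 0.31), with an edgeR quasi-likelihood adjusted p of 0.869, and it ranged from -0.52 without pair E to -0.04 without pair B, with -0.13 without pair D. The Nes difference exceeded that of Synm in all 5 models, with a mean of 1.32 ± 1.20 on the log2 scale (SD, n = 5; exact sign-flip p = 0.063, adjusted 0.0938). The excess was 0.27 in model A and 0.26 in model E, where Synm had 8 to 38 reads per library. With the column without strand the mean was 1.44 and the exact sign-flip p was 0.125.

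**Figure D3:**
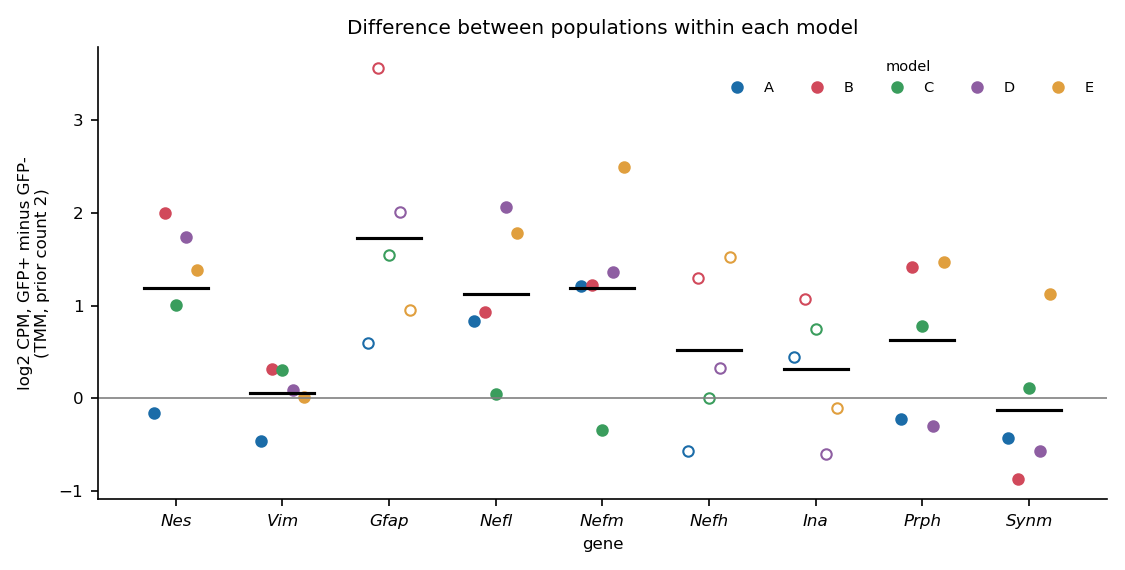
GFP+ minus GFP- difference of log2 CPM (prior count 2) for each gene, with 1 point per model A to E, open where the gene did not pass the filter, and a bar at the mean. Nefl and Gfap were above 0 in all 5 models, Nes in all but A, and Nefm in all but C. The Gfap points of models A and E rest on 1 and 2 reads against 0.

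Levels can be ordered between genes only per length, as CPM divided by the exon length in kilobases (RPKM). Averaged over the 10 libraries, Vim stood at 909 RPKM (range 556 to 1229), followed by Nes at 10.9 (2.51 to 36.0), Nefl at 5.93 (1.56 to 13.6) and Nefm at 2.55 (0.366 to 6.39). Synm, Prph, Gfap, Ina and Nefh followed at 0.362, 0.266, 0.157, 0.0739 and 0.0144 RPKM. Over the 8 pairs of neighbours in this order, an exact sign-flip test over the 5 models can reach no p under 0.063, so none could pass the threshold. Vim was above Nes, Nefm above Synm and Ina above Nefh in 10 of 10 libraries (exact p = 0.063 each, 0.167 after adjustment over the 8 pairs). Other neighbours changed places: Nes was above Nefl in 7 of 10 libraries and 4 of 5 models (exact p = 0.312), Nefl above Nefm in 9 of 10 libraries and 4 of 5 models (exact p = 0.125; with the longest transcript as the length, 7 of 10 libraries and p = 0.312), Prph above Gfap in 4 of 5 models, Gfap above Ina in 3 and Synm above Prph in 2.

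Vimentin made up 97.5% ± 2.02 (SD, n = 10 libraries) of the summed per-length level of the 9 genes, between 92.2% and 99.6%. With Vim set aside, the remainder differed from library to library. Nes held 16.3% to 81.3% of it, Nefl 11.0% to 68.6%, Nefm 5.01% to 29.4% and Synm 0.567% to 11.2%.

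**Figure D4:**
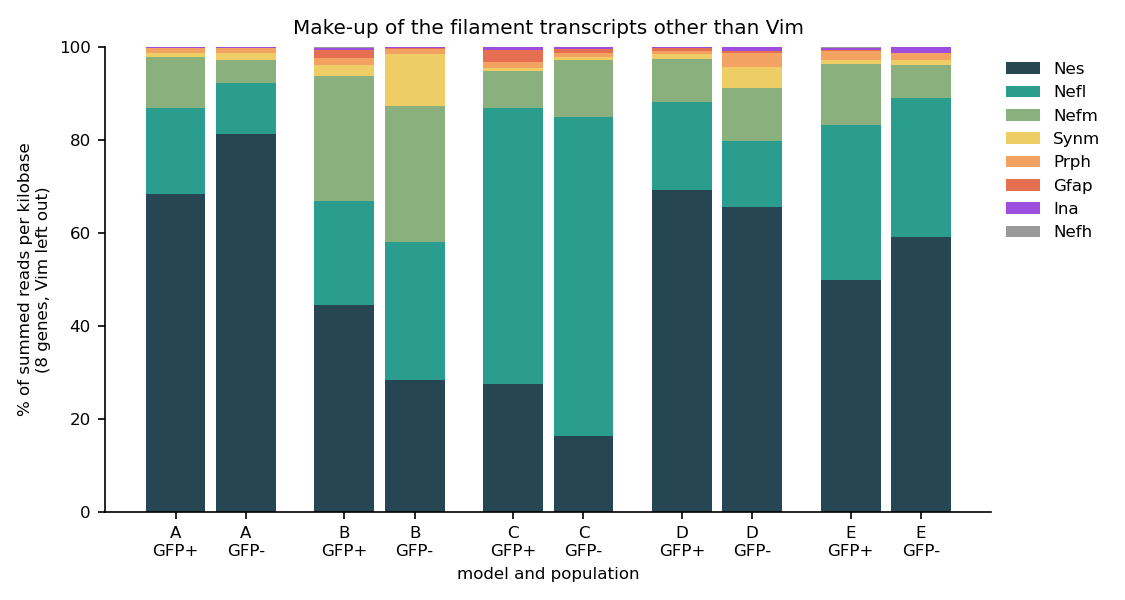
Share of each filament gene, in percent of the summed per-length level without Vim, in the GFP+ and GFP- library of each model. Nes ranged from 16.3% to 81.3% of a library and Nefl from 11.0% to 68.6%.

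Levels were also compared between the 5 tumour models. The edgeR quasi-likelihood test between them, with the population as a term, called 4 of the 6 tested members, beside 54.7% of all genes, so the members' count stands near that background. The adjusted p was 0.00657 for Synm, 0.0111 for Nefl, 0.0119 for Nes and 0.0359 for Vim, and 0.0708 for Nefm and 0.377 for Prph. Both libraries of a model come from the same tumour model, so they are not independent replicates of it. The Nefl call was lost without model C (0.254), where the gene was highest, and the Vim call without model C (0.0763), D (0.154) or E (0.133). Nefm passed when model C was left out (0.0204). Without the population term Nes was at 0.0956 and Nefl at 0.101.

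By model mean over both populations, Nes was highest in D, at 149 CPM, and lowest in C, at 30.1 CPM. Nefl was highest in C, at 45.0 CPM, and lowest in A, at 9.81 CPM, and Nefm was highest in B, at 26.0 CPM, and lowest in E, at 7.23 CPM. Vim and Synm were ordered in opposite ways except for models D and B: Vim ran 2775, 3507, 4348, 5102 and 5828 CPM in D, B, A, C and E, while Synm was 4.76, 6.18, 1.70, 0.984 and 0.748 CPM in those models. Over the 10 libraries, which come from 5 pairs, the Pearson r between log2 CPM of Vim and Synm was -0.84.

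Further lists held genes that work with the filaments or mark other cells, and all counts are over genes passing the filter, beside 6898 higher and 7088 lower among all 13986 genes, with a median log2 difference of -0.003. The edgeR quasi-likelihood test called 0 genes in every list. Among other intermediate filaments and lamins, 9 of 9 tested genes had a positive difference (median 0.15), with 1 at an unadjusted p under 0.05, the syncoilin gene Sync, at 0.93 (SE 0.26). Among the linkers that join filaments to junctions and other fibres, 10 of 11 were positive (median 0.29) and 5 passed an unadjusted p of 0.05, including dystrobrevin Dtna at 0.50 (SE 0.13), dystonin Dst at 0.29 (SE 0.08) and desmoplakin Dsp at 0.77 (SE 0.25).

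Of the 14 kinases, chaperones and turnover factors that act on filaments, 12 had a positive difference (median 0.13) and 5 an unadjusted p under 0.05. The mitotic kinase genes Aurkb and Cdk1, whose products phosphorylate vimentin in dividing cells, differed by 1.18 (SE 0.28) and 0.81 (SE 0.20), and DESeq2 adjusted p were 0.00702 and 0.0141. DESeq2 also called Plk1, at an adjusted p of 0.0204. Neural progenitor genes, 7 tested of 10, gave 5 positive and 2 negative differences (median 0.06). At an unadjusted p under 0.05, 3 were higher and 0 lower, beside 5.5% and 3.49% of all tested genes. DESeq2 called 2 higher, including Pax6 (adjusted p = 0.0293), beside 0.994% of all tested genes. Pax6 differed by 2.82 (SE 0.94) and Sox11 by 1.12 (SE 0.40). Outside model D, every GFP- library was near 0 for Pax6 (at most 0.154 CPM), and the GFP+ partners ranged from 0.489 to 2.95 CPM. Model D, where Pax6 was highest, was almost level, with 14.6 CPM (GFP+) against 13.2 CPM (GFP-). The Pax6 difference thus rests on models with low levels of the gene.

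Neuronal genes were mixed in level. Of 15 listed, 7 passed the filter, 5 with a positive and 2 with a negative difference (median 0.72), and Th was listed at 0 in every library. Rbfox3 reached at most 0.055 CPM, Dcx 0.160 CPM and Tubb3 3.02 CPM in any library. Higher levels were reached by Stmn2 (175 CPM), Gap43 (118 CPM), Uchl1 (46.4 CPM), Map2 (34.0 CPM) and Syt1 (19.1 CPM). Map2 and Syt1 had a negative difference, of -0.12 (SE 0.29) and -0.35 (SE 0.46). The more abundant Uchl1, Gap43 and Stmn2 had positive differences, of 1.33 (SE 0.16), 0.93 (SE 0.36) and 1.04 (SE 0.41). Of the 7 tested, 3 had an unadjusted p under 0.05, and DESeq2 called 1 higher, Uchl1 (adjusted p = 5.90e-06). The summed level was 110 to 334 CPM in GFP+ and 58.7 to 197 CPM in GFP- libraries. Whether neuronal cells contributed to Nefl and Nefm was not tested.

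Of the Schwann lineage genes, 11 of 12 tested had a positive difference, with a median of 1.53 and 9 at an unadjusted p under 0.05. Sox10 differed by 3.61 (SE 0.40) and Gjc3 by 3.20 (SE 0.45), and DESeq2 called both and Erbb3. Markers of other cells that a dissociated tumour could hold were also read. Endothelial genes summed to 1.40 to 4.51 CPM in GFP+ and 0.488 to 4.13 CPM in GFP- libraries, and immune genes to 8.58 to 16.5 CPM in GFP+ and 7.60 to 20.8 CPM in GFP- libraries. Fibroblast genes, which tumours of mesenchymal character share, summed to 7976 to 13008 CPM in GFP+ and 8693 to 15944 CPM in GFP- libraries. Pericyte and smooth muscle genes, at 73.3 to 181 CPM in GFP+ and 41.3 to 220 CPM in GFP- libraries, were negative in 5 of 6 (median -0.37), and fibroblast genes in 3 of 5 (median -0.19), with DESeq2 calling the receptor gene Pdgfra lower. The part of these cells in the filament levels was not tested.

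**Figure D5:**
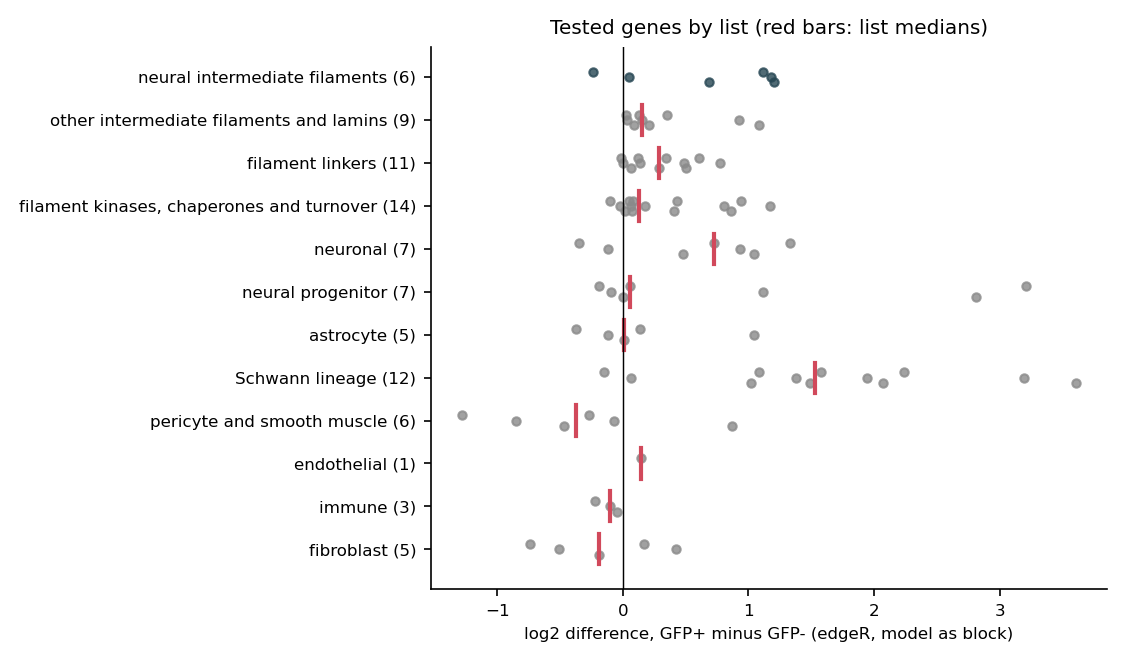
GFP+ minus GFP- log2 difference of each tested gene in the filament set and in each related list, with the list median as a bar except for the filament set. The Schwann lineage list had a median of 1.53, the filament linkers 0.29 and pericyte and smooth muscle genes -0.37.

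Genes whose profiles were most like those of the members were ranked by Pearson r of log2 CPM over the 10 libraries, which come from 5 pairs. For Nes they were Pop4 (0.96), Crmp1 (0.94), Tdrkh (0.92), Afap1l1 (0.92) and Rapgef3 (0.91). Those for Nefl were Psmc5 (0.95), 2010015M23Rik (0.94), Yipf1 (0.94), Inafm2 (0.94) and Rras2 (0.91). The Nefm profile was nearest to Slc37a2 (0.93), Cyp2u1 (0.92), Dst (0.92), Coq10b (0.92) and Rnf8 (0.91), so that Dst appears both as a linker and as a neighbour of Nefm.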

How the data were processed

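RNA-seq of 5 GFP+ and 5 GFP- sorted samples was used, 1 pair per tumour model. The authors deposited unnormalized counts of reads for each gene in the layout of STAR's gene counts, made with STAR 2.4.2.8 and build mm10 per the submitters' processing notes; their annotation, kit and strand are not stated there. Column 4 was read, because it held 96.9% to 97.1% of the stranded reads. The 4 summary lines, 21.3% to 24.3% of reads, were left out. Reads with several positions, 5.99% to 9.74%, are not in the gene counts. Of 46517 gene identifiers, 46005 matched a symbol in GENCODE vM21.

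Counts passing edgeR's filterByExpr (13986 genes) were scaled by TMM and tested with edgeR 4.0.16 (quasi-likelihood, model as block, Benjamini-Hochberg), in R 4.3.3. The pairs come from the design text; the 2 libraries of a model correlated in their deviations at 0.628 to 0.867. DESeq2 1.42.0, limma 3.58.1, other scalings and filters, and leaving out each pair were tried. Pair differences use log2 CPM with prior count 2, and per-length levels the union of annotated exons, with the longest transcript as an alternative. Nothing says that the libraries are separate biological replicates beyond their models, so p-values of the GFP+ against GFP- tests measure the spread between these 5 pairs. The test between models sets model differences against the spread left after population and model, with no replicate of a model. RefSeq promoters are from GRCm38.p6. The 9 genes and the lists were chosen with earlier results of these data known; the genes named from lists were those with the smallest p, up to 3 per list, and the 5 most alike for Nes, Nefl and Nefm. Other list genes named (Plk1, Erbb3, Map2, Syt1, Myh11, Cnn1, Cspg4, Notch3, Kcnj8, Des, and the markers given by their highest level) were chosen after their values were seen. Some list genes and 1 sequence are not reported here.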

Additional observations from a re-analysis of the deposited data

Results flagged for a closer look

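Among the 18 groups of 5 libraries examined, 2 held a library far from the other 4 by Dixon's test on CPM (critical value 0.71). Chance gives about 1 in 20 such groups if the values are normally distributed. Nes was at 231 CPM in GFP+ cells of model D, and the next highest GFP+ library was at 88.4 CPM, so the gap was 0.749 of the range. This is the library that carried both Xist and Y-linked transcripts, and whether it held cells of more than 1 animal was not tested. Nefl was at 44.0 CPM in GFP- cells of model C, and the next highest GFP- library was at 8.88 CPM, a gap of 0.907 of the range. The GFP+ library of the same model was at 46.0 CPM. Both flags are for CPM on a linear scale, and the test was not run on log2 CPM. On the log2 scale the highest, next and lowest GFP+ libraries for Nes were at 7.82, 6.44 and 5.33. For Nefl the GFP- libraries in the same order were at 5.48, 3.19 and 2.45.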

How the results depend on the processing

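The number of genes called between GFP+ and GFP- cells was 0 with edgeR's quasi-likelihood test, 47 with no filter on low counts, 190 with DESeq2 and 206 with the likelihood-ratio test. Of the members, 3 were called by DESeq2 and 2 by the likelihood-ratio test (Nes at 0.00912 and Nefl at 0.0186); the cause was not tested. The paired fit was the main one. Without the replicate block 0 genes were called, and the log2 difference was 1.09 for Nes, 0.78 for Nefl and 1.08 for Nefm. Leaving out each pair in turn gave -0.01 to 0.17 for Vim, which turned to -0.013 without pair B or C, and -0.10 to 0.25 for Nefm minus Nefl, negative without pair A (-0.02) or E (-0.10). Between models, 4038 (without model C) to 7545 genes were called, against 7655 in all, and 2 members without the population term. Low counts limit Nefh, Ina, Gfap and Prph; Prph had no value under a filter of 1 CPM in 5 libraries or without pair D.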

Other observations

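Desmin, the filament of muscle cells, was near 0 in these tumours. Des had 0.167, 0.053, 0.054, 0.494 and 0.145 CPM in GFP+ cells of models A to E, against 1.39, 0.317, 0.330, 4.07 and 0 CPM in GFP- cells, so GFP- cells were higher in models A to D. Summed skeletal muscle markers moved beside it, at 0.439 CPM in the GFP+ library of model D and 6.20 CPM in its GFP- library, and at 0.217 to 0.483 CPM over all GFP+ libraries. Of the pericyte and smooth muscle list, Myh11, a smooth muscle myosin gene, was at 0.165 CPM in the GFP+ library of that model and 12.2 CPM in the GFP- library. Rgs5, Notch3, Abcc9 and Kcnj8 were also lower in that GFP+ library, at 16.8, 32.4, 0.932 and 1.10 CPM. The GFP- library of the model had 63.8, 61.7, 5.88 and 3.50 CPM of these genes. Cnn1 was nearly level, at 1.65 CPM in the GFP+ and 1.94 CPM in the GFP- library. Cspg4 and Mcam went the other way, at 48.4 and 79.7 CPM in the GFP+ library against 40.0 and 30.7 CPM. The part of muscle cells in these values was not tested.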
